A study of Mus musculus with 24 samples.

Results

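Metallothioneins and genes of the NRF2 antioxidant response were followed in 24 mouse choroid libraries, as 10 genes of the 56065 genes with deposited values. They were taken by name from the table: the metallothioneins Mt1, Mt2 and Mt3, the transcription factor gene Nfe2l2, which encodes NRF2, the NRF2 target genes Nqo1, Gclc, Gclm, Txnrd1 and Srxn1, and the glutathione peroxidase gene Gpx4. Each name matched 1 row, and all 10 passed the filter on low values, a mean normalized count of at least 10. The libraries came from wild type littermates and from Ceacam1-/- mice on the C57BL/6J background, which lack exons 1 and 2 of the adhesion receptor gene Ceacam1 in all cells. Of the wild type libraries, 4 had the label without laser and 9 the label with laser, and of the Ceacam1-/- libraries, 4 and 7. Laser treatment, under ketamine and xylazine anaesthesia, placed 6 laser spots in each eye to induce choroidal neovascularization, a growth of new vessels through the ruptured Bruch's membrane. The study's methods describe young adult mice of both sexes for its experiments in general. The time between laser and tissue collection, and which age and sex each library came from, are not given in the sources used here. The labels do not say whether a library is 1 eye or 1 animal, so p-values measure the spread between these samples. All laser libraries carry lower numbers (1 to 19) than all libraries without laser (21 to 28), so any order of handling and the laser treatment cannot be told apart.

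Metallothioneins are small cysteine-rich proteins that bind zinc and copper and can take up oxidants. Mt1 and Mt2 are induced by metals through the factor MTF1, which binds metal response elements, and by glucocorticoids, while Mt3 is best known from neurons and glia. NRF2 is held in the cytoplasm by KEAP1 and degraded. Oxidants and electrophiles release it, and it then binds antioxidant response elements together with small MAF proteins and switches on genes of glutathione synthesis, quinone reduction and thiol repair. In the eye, the retinal pigment epithelium (RPE), which phagocytoses photoreceptor outer segments under intense light and high oxygen, is a much studied site of this response.

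The metallothionein genes lie side by side on chromosome 8 of the GRCm39 build. Mt3 (ENSMUSG00000031760) spans 94879220 to 94881088, Mt2 (ENSMUSG00000031762) 94898819 to 94900207 and Mt1 (ENSMUSG00000031765) 94905710 to 94906955, all on the plus strand. Between Mt1 and Mt2 lie 5502 bases, and between Mt2 and Mt3 17730. The fourth gene of this cluster, Mt4, which is known from stratified epithelia, had a mean of 0.639 normalized counts and at most 12.4 in a library. To show the sequence around the RefSeq starts of the metallothionein genes, RefSeq promoter windows are printed (250 bases before to 50 after that start, located in GRCm39, plus strand). Matches to the core of the metal response element (TGCACNC or TGCGCNC on either strand) are in capitals. The windows come from chr8:94905467-94905766, chr8:94898996-94899295 and chr8:94878985-94879284. Positions are counted from the RefSeq start. The Mt2 window lies wholly inside the Mt2 span given above, because its RefSeq start is downstream of the gene start given there.
Mt1: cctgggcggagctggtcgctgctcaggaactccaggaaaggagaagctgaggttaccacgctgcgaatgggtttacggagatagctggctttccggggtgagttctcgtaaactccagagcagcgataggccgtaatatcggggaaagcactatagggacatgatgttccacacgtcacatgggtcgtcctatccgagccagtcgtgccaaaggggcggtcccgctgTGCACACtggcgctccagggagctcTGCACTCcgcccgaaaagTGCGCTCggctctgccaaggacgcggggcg
Mt2: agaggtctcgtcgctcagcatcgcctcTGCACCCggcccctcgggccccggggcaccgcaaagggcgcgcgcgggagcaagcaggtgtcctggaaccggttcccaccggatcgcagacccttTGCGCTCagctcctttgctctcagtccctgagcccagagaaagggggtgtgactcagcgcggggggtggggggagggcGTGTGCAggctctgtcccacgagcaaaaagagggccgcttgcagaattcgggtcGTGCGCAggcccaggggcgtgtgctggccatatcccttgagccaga
Mt3: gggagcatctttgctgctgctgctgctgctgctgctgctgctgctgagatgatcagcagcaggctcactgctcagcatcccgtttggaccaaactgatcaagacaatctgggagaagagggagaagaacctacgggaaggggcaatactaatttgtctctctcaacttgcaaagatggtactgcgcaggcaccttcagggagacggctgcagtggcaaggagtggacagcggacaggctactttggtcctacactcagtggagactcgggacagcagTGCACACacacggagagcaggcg

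The Mt1 window holds 3 matches, the Mt2 window 4 and the Mt3 window 1. The metal core is not limited to the metallothioneins, as the Gclm window also holds 3 matches and the Srxn1 window 1. At least 1 match is found in 25.7% of 32851 RefSeq mouse windows of this length and at least 3 in 1.97%. The core of the antioxidant response element, TGACNNNGC on either strand, occurs in 12.4% of the windows. Among the windows of the metallothionein genes only that of Mt2 holds it, once, at position -79 from the start. Windows were found for 9 of the 10 genes, and those of Nfe2l2, Srxn1, Gclm and, in 1 of its windows, Txnrd1 hold the antioxidant core. The windows of Nqo1 and Gpx4 hold neither core. The Gclm window (chr3:122038956-122039255, plus strand) is printed as an example from glutathione synthesis, with its antioxidant core, on the minus strand at position -134 from the start, in capitals. A match describes these letters only.
Gclm: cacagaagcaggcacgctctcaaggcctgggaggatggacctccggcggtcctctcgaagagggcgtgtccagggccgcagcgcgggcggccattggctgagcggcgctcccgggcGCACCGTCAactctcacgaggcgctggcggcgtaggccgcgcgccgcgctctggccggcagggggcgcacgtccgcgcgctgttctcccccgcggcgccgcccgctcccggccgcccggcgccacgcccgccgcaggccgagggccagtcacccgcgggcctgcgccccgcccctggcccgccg

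Expressed per kilobase of the annotated canonical transcript and averaged over the 24 libraries, Mt1 had the highest level of the 10 genes, with 26186 normalized counts per kilobase. Gpx4, which reduces lipid peroxides in membranes, followed with 18871, Mt2 with 6639 and Mt3 with 2845. Mt1 was above Gpx4 in 17 of the 24 libraries, whereas Gpx4 was above Mt2, Mt2 above Mt3 and Mt3 above Nqo1 in all 24. The quinone reductase gene Nqo1 (726), the thioredoxin reductase gene Txnrd1 (702) and Nfe2l2 (645) lay close together. Their order was not stable, as Nqo1 exceeded Txnrd1 in 11 of 24 libraries and Txnrd1 exceeded Nfe2l2 in 16. Gclc (353) and Gclm (327), the catalytic and the modifier subunit of glutamate-cysteine ligase, were equally close, with Gclc ahead in 13 libraries. The sulfiredoxin gene Srxn1 had the lowest level (163) and was below Gclm in each library.

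Some libraries stood apart before any comparison of groups. Markers of the RPE (12 genes, of which Ttr was the most abundant and none was at 0) summed to between 233382 and 1002381 normalized counts in 21 libraries. In the Ceacam1-/- laser libraries 14, 15 and 18 they summed to 78830, 80567 and 48962. These same libraries had 1140267, 646374 and 1195673 normalized counts of 13 photoreceptor markers (none at 0). Photoreceptor markers also exceeded 500000 in library 21 (618228, wild type without laser) and library 23 (665337, Ceacam1-/- without laser). Library 25, a Ceacam1-/- library without laser, had the highest sum of all values (35094410, against 23704346 to 28563124 in the others) and the highest RPE sum. It also had the highest sum of 13 muscle markers (1693513, most abundant Atp2a1). The labelled choroid therefore contained RPE, photoreceptor and muscle RNA in amounts that differed between libraries, and in bulk tissue fewer cells of a type and less RNA per cell cannot be told apart.

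Ceacam1 itself was low in the Ceacam1-/- libraries but not absent. With laser it lay between 67.8 and 905 normalized counts (median 335) in Ceacam1-/- and between 774 and 8367 (median 996) in wild type libraries. Without laser the ranges were 405 to 1171 and 958 to 5027. In 6 of the 7 Ceacam1-/- laser libraries it was below each wild type laser library, library 15 (905) being the exception. The log2 fold change of Ceacam1 with laser was -2.17 (standard error 0.52, limma adjusted p = 0.104). Values are for the whole gene and include exons outside the deletion. Surface epithelium markers, led by Krt15, were high in library 15 (528112) and also in libraries 28 (454439), 22 (409626), 19 (109072) and 27 (76388). Libraries 19, 22 and 27 had the highest Ceacam1 values of all (8367, 5027 and 4596), and the part of these cells in the Ceacam1 values was not tested.

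Metallothioneins did not pass the test after laser in wild type mice, whereas Mt3 was lower after laser in Ceacam1-/- mice. In wild type libraries without laser, Mt1 had 15856, 9291, 31374 and 14925 normalized counts (libraries 21, 22, 26 and 27). With laser it ranged from 11291 to 40689 with a median of 17992, so the groups overlapped almost completely. In Ceacam1-/- libraries Mt1 had 16593, 31161, 72024 and 17675 without laser (libraries 23, 24, 25 and 28) and between 6236 and 20156 (median 11578) with laser. The highest value of all came from library 25, and 5 of the 7 laser libraries were below each library without laser.

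**Figure D1:**
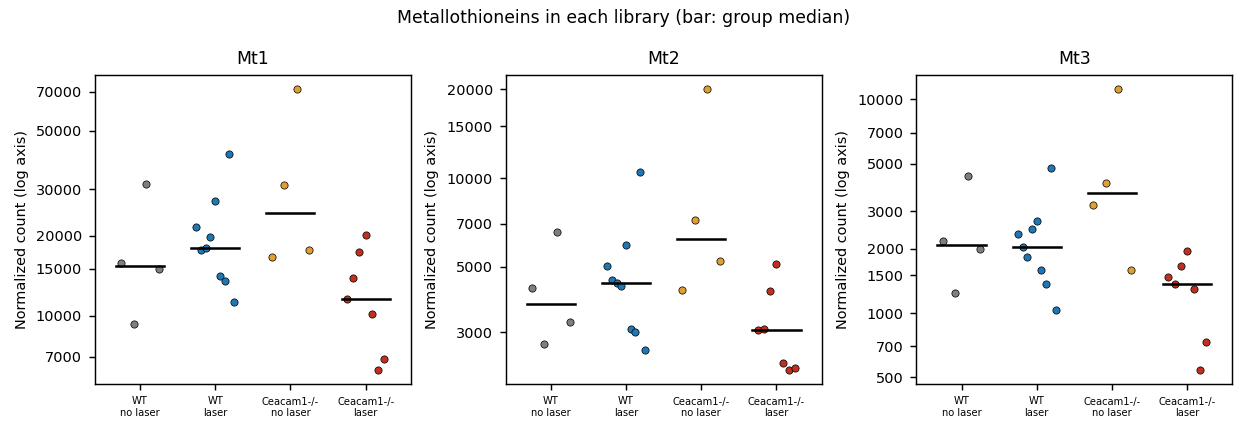
Normalized counts (log axis) of Mt1, Mt2 and Mt3 in each library of the 4 groups, with bars at the group medians. The single high point without laser in Ceacam1-/- mice is library 25 (72024, 20089 and 11246), and the lowest points are Ceacam1-/- laser libraries.

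Mt2 had its highest and its lowest value of each group in the same libraries as Mt1. Its values were 4250, 2748, 6581 and 3246 in wild type libraries without laser and 2619 to 10458 (median 4402) with laser. In Ceacam1-/- libraries they were 4168, 7191, 20089 and 5250 without laser and 2241 to 5102 (median 3067) with laser. Here 6 of 7 laser libraries were below each library without laser. Mt3, at lower values, had 2173, 1236, 4373 and 2000 normalized counts in wild type libraries without laser and 1032 to 4768 (median 2030) with laser. In Ceacam1-/- libraries it had 3210, 4076, 11246 and 1592 without laser and 542 to 1946 (median 1362) with laser. The ranges overlapped through library 28, which had the lowest Mt3 value without laser in Ceacam1-/- mice.

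Differences between groups were tested with limma on log2 of the normalized count plus 1, over all genes with a mean of at least 10, and p, adjusted over all of them after Benjamini and Hochberg, had to be under 0.05. Log2 fold changes are on this scale. In wild type mice, laser changed the 3 metallothioneins by less than their error, with log2 fold changes of 0.23 for Mt1, 0.16 for Mt2 and -0.11 for Mt3 (standard errors 0.39, 0.36 and 0.43). The sign turned without library 22 for Mt1 and Mt2 (-0.038 and -0.021), and without library 19 or 26 for Mt3 (0.016 and 0.22). In Ceacam1-/- mice, Mt3 was 3.29-fold lower with laser (log2 fold change -1.72, standard error 0.45, adjusted p = 0.0348). Mt1 and Mt2 had log2 fold changes of -1.33 (standard error 0.41, adjusted p = 0.0708) and -1.30 (standard error 0.38, adjusted p = 0.0537) and did not pass. Two-sided exact permutation tests of the single genes gave p = 0.0212 for Mt1, p = 0.00606 for Mt2 and p = 0.00909 for Mt3, among 40 such tests, without adjustment.

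The size of the Mt3 difference depended most on library 25, without which its log2 fold change was -1.21 (adjusted p = 0.25). Mt3 also missed the threshold, with log2 fold changes of -1.75, -1.53, -1.60 and -1.70, without library 5 (adjusted p = 0.0519), 15 (0.0561), 18 (0.0533) or 24 (0.108). Without the filter on low values its adjusted p was 0.0589. Mt1 passed without library 23 (log2 fold change -1.59, adjusted p = 0.0221), and Mt2 passed without library 7, 17, 23 or 28 (adjusted p between 0.0123 and 0.0478). Other single libraries left out weakened both. The log2 fold change was then as small as -0.88 for Mt1 and -0.83 for Mt2, and limma adjusted p reached 0.384 and 0.344. With array weights both passed (Mt1 -1.02, adjusted p = 0.0363, and Mt2 -1.01, adjusted p = 0.0267), and with a mean of at least 50 as filter Mt2 passed (adjusted p = 0.0480). With only the 11 Ceacam1-/- libraries in the model, Mt3 had the same log2 fold change of -1.72 and an adjusted p of 0.193. Without the 5 libraries rich in photoreceptor markers it had a log2 fold change of -1.39 (adjusted p = 0.0900). The difference between the genotypes in the laser effect was -1.55 for Mt1, -1.46 for Mt2 and -1.61 for Mt3 on the log2 scale (standard errors 0.57, 0.52 and 0.62), with an adjusted p of 0.640 for each.

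Among the NRF2 genes, Nqo1 was lower after laser in Ceacam1-/- mice, and none of the other NRF2 genes among the members passed in either laser comparison. Nqo1 (ENSMUSG00000003849, chromosome 8, 108113835 to 108129934, minus strand) had 1630, 2517, 5264 and 1342 normalized counts in Ceacam1-/- libraries 23, 24, 25 and 28 without laser. With laser it had 1018, 1230, 1202, 1135, 228, 900 and 282 in libraries 4, 5, 6, 7, 14, 15 and 18. It was the only one of the 10 genes for which the Ceacam1-/- groups with and without laser did not overlap, and 2.13% of the 19950 genes tested did not overlap in this comparison. In wild type mice no member was free of overlap, against 6.25% of all genes. Wild type libraries had 1989, 2066, 3994 and 2822 without laser and between 1208 and 3199 (median 1975) with laser.

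**Figure D2:**
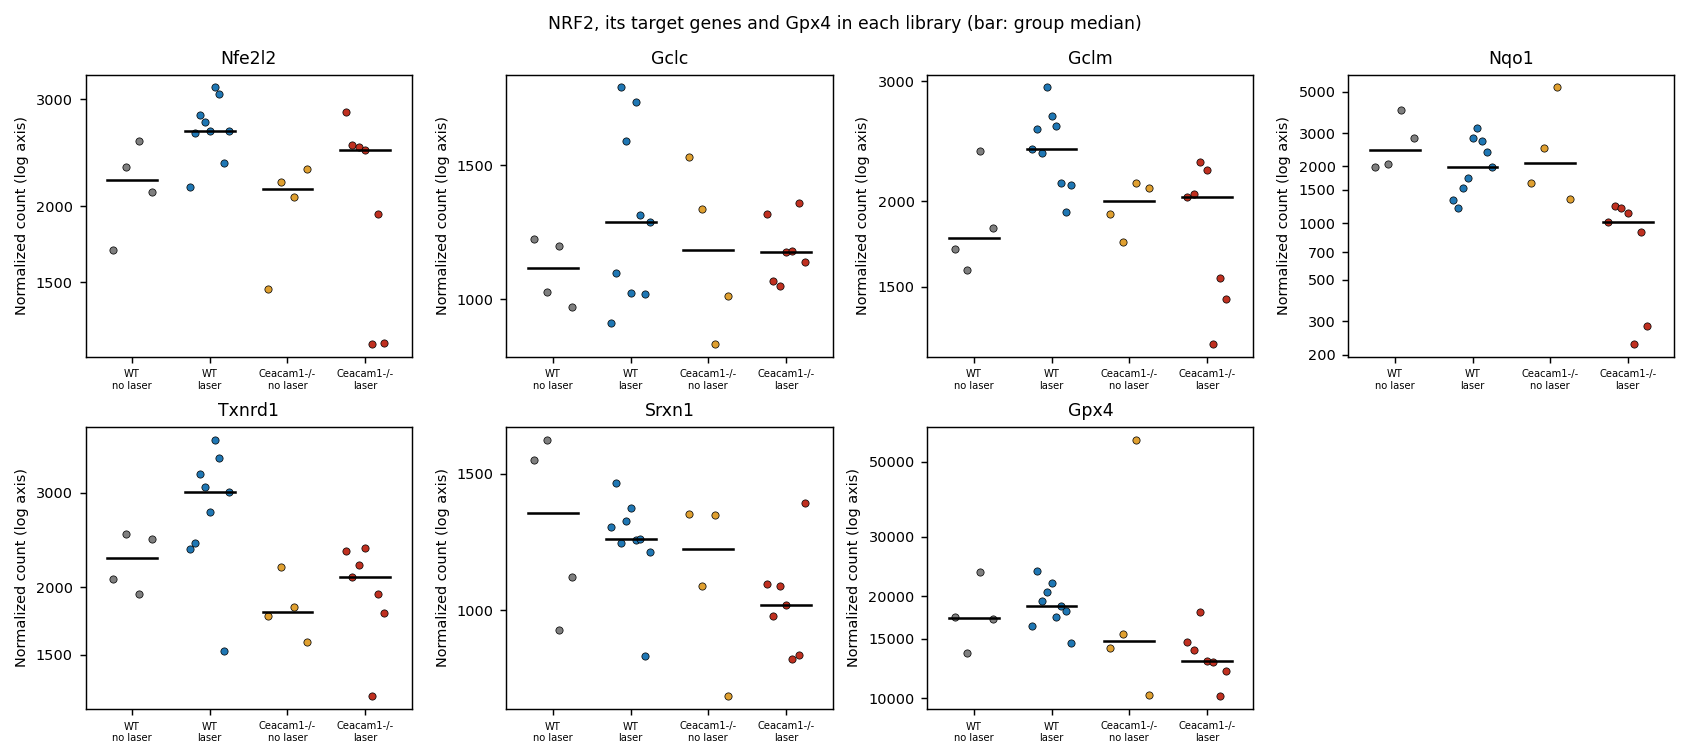
Normalized counts (log axis) of Nfe2l2, Gclc, Gclm, Nqo1, Txnrd1, Srxn1 and Gpx4 in each library of the 4 groups, with bars at the group medians. Nqo1 is lowest in the Ceacam1-/- laser group (228 to 1230), and Nfe2l2 (1188), Gclm (1237) and Txnrd1 (1256) have their lowest value of all in library 14 of the same group.

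Nqo1 was 3.22-fold lower with laser in Ceacam1-/- mice (log2 fold change -1.69, standard error 0.45, adjusted p = 0.0363, two-sided exact permutation test of the single gene p = 0.0152). The wild type difference was smaller than its error (-0.39 on the log2 scale, standard error 0.43, adjusted p = 0.625). The call was lost without library 14 (adjusted p = 0.0521), 18 (0.0545), 24 (0.114) or 25 (0.239, log2 fold change -1.30). It was also lost with only the 11 Ceacam1-/- libraries in the model (adjusted p = 0.244) and without the filter on low values (0.0618). Without the 5 libraries rich in photoreceptor markers Nqo1 kept its call with a smaller difference (log2 fold change -1.19, adjusted p = 0.0422). The test of the difference between genotypes gave -1.30 (standard error 0.62, adjusted p = 0.640).

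Nfe2l2 (ENSMUSG00000015839, chromosome 2, 75504739 to 75534985, minus strand) showed its widest spread in the Ceacam1-/- laser group. Its values there were 2858, 2525, 2501, 2472, 1188, 1944 and 1191 normalized counts in libraries 4, 5, 6, 7, 14, 15 and 18. Libraries 14 and 18 had the lowest Nfe2l2 values of all 24. In wild type mice Nfe2l2 had 1692, 2317, 2559 and 2109 without laser and 2155 to 3139 (median 2659) with laser, and 7 of the 9 laser libraries were above each library without laser. The log2 fold change was 0.32 in wild type (standard error 0.21, adjusted p = 0.393, and 0.0132 with array weights, two-sided exact permutation p = 0.0140) and 0.0088 in Ceacam1-/- mice (standard error 0.22, adjusted p = 0.984). Without the 5 libraries rich in photoreceptor markers it was 0.21 in wild type (limma adjusted p = 0.318) and 0.24 in Ceacam1-/- mice (0.251).

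The 2 subunits of glutamate-cysteine ligase, the first step of glutathione synthesis, differed in their values. Gclm (ENSMUSG00000028124, chromosome 3, 122039126 to 122065061, plus strand) had 1703, 1586, 2371 and 1830 normalized counts in wild type libraries without laser and 1927 to 2937 (median 2387) with laser. It had the lowest p of the members in wild type mice (log2 fold change 0.37, standard error 0.16, adjusted p = 0.191, two-sided exact permutation p = 0.0126). Ceacam1-/- libraries had 1916, 1746, 2129 and 2091 without laser and 1237 to 2282 (median 2032) with laser, a log2 fold change of -0.14 (standard error 0.16, adjusted p = 0.671). Gclc (ENSMUSG00000032350, chromosome 9, 77661797 to 77701770, plus strand) varied most in wild type laser libraries, from 929 to 1898 (median 1262), against 977 to 1199 without laser. Its log2 fold change was 0.24 in wild type and 0.0083 in Ceacam1-/- mice (standard errors 0.18 and 0.19, adjusted p = 0.475 and 0.984). With array weights, which give libraries that vary more a lower weight, Gclc passed in wild type mice (log2 fold change 0.48, adjusted p = 0.0152), as did Gclm (0.43, 0.00375).

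The thiol repair genes did not pass the test after laser in either genotype. Txnrd1 (ENSMUSG00000020250, chromosome 10, 82669785 to 82733546, plus strand), which regenerates thioredoxin, had between 1524 and 3768 normalized counts (median 3009) in wild type laser libraries and between 1941 and 2513 without laser. Its log2 fold change was 0.31 in wild type (standard error 0.19, adjusted p = 0.378, and 0.0331 with array weights) and 0.10 in Ceacam1-/- mice (standard error 0.20, adjusted p = 0.816). Srxn1 (ENSMUSG00000032802, chromosome 2, 151947436 to 151957687, plus strand), which repairs overoxidized peroxiredoxins, had medians of 1334 and 1236 normalized counts without and with laser in wild type and of 1201 and 1017 in Ceacam1-/- mice. Its log2 fold changes were -0.06 and -0.10 (standard errors 0.17 and 0.18). The 95% interval of the wild type laser effect on Srxn1 ran from -0.42 to 0.29.

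Gpx4 (ENSMUSG00000075706, chromosome 10, 79883000 to 79892273, plus strand) was high in all libraries and extreme in library 25. The Ceacam1-/- libraries 23, 24, 25 and 28 had 14057, 15504, 58109 and 10201 normalized counts without laser, and the laser libraries 10141 to 17982 (median 12885). Wild type libraries had 13597 to 23546 without laser and 14530 to 23800 (median 18661) with laser. Laser effects on Gpx4 were 0.09 in wild type (standard error 0.29, adjusted p = 0.872) and -0.51 in Ceacam1-/- mice (standard error 0.30, adjusted p = 0.353), the latter 0.026 without library 25. Gpx4 has processed pseudogene copies. The transcript Gm63662, which lies over the pseudogene Gpx4-ps2 on chromosome 10, had a mean of 3002 normalized counts and the highest correlation with Gpx4 of all genes (Pearson's r 0.955 over the 24 libraries). This relation was chosen after its values were seen. Gpx4-ps2 itself was at 0 in each library, and the copy Gpx4-ps1 had a mean of 17.6 normalized counts. Whether reads were divided between Gpx4 and its copies was not tested, and Gpx4 values are uncertain to that extent. In addition, 7 of the 10 members (Mt2, Nfe2l2, Gclc, Gclm, Txnrd1, Srxn1 and Gpx4) overlap a gene on the other strand, and whether strand was used in counting is not given in the sources used here.

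The counts of members called after laser were read against those of all genes. In wild type mice 0 of the 10 members were called, while 4.23% of 19950 genes were called higher and 1.05% lower with laser. The lowest adjusted p of a member was 0.191, and 1 of 10 members (Gclm) had an unadjusted limma p under 0.05, against 20% of all genes. In Ceacam1-/- mice 2 of 10 were called lower and 0 higher, while 1.65% of all genes were called lower and 2.07% higher. The median log2 fold change of the members was 0.19 in wild type against -0.10 over all genes, and -0.32 against 0.02 in Ceacam1-/- mice. In the Ceacam1-/- comparison log2 fold changes were also negative for 12 of 12 RPE markers (median -0.84) and 13 of 13 muscle markers (median -2.06) and positive for 13 of 13 photoreceptor markers (median 2.26), with 0 of these called. Their part in the members' values was not tested. For the difference of the laser effect between genotypes, 0 of 19950 genes (0%) had an adjusted p under 0.05. In this test 5 of the 10 members (Mt1, Mt2, Mt3, Nqo1 and Gclm) had an unadjusted p under 0.05 and a lower value in Ceacam1-/-, against 2.43% of all genes. Without the 5 libraries rich in photoreceptor markers this held for 2 members, Mt1 and Mt2, where 4.68% of 19596 genes had an unadjusted p under 0.05 in either direction. In the same test log2 values were negative for 12 of 12 RPE (median -1.30), 13 of 13 muscle (-1.07), 10 of 10 endothelial (-0.70) and 15 of 15 myeloid markers (-0.66) and positive for 13 of 13 photoreceptor markers (3.68), with 0 called, and their part was not tested.

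**Figure D3:**
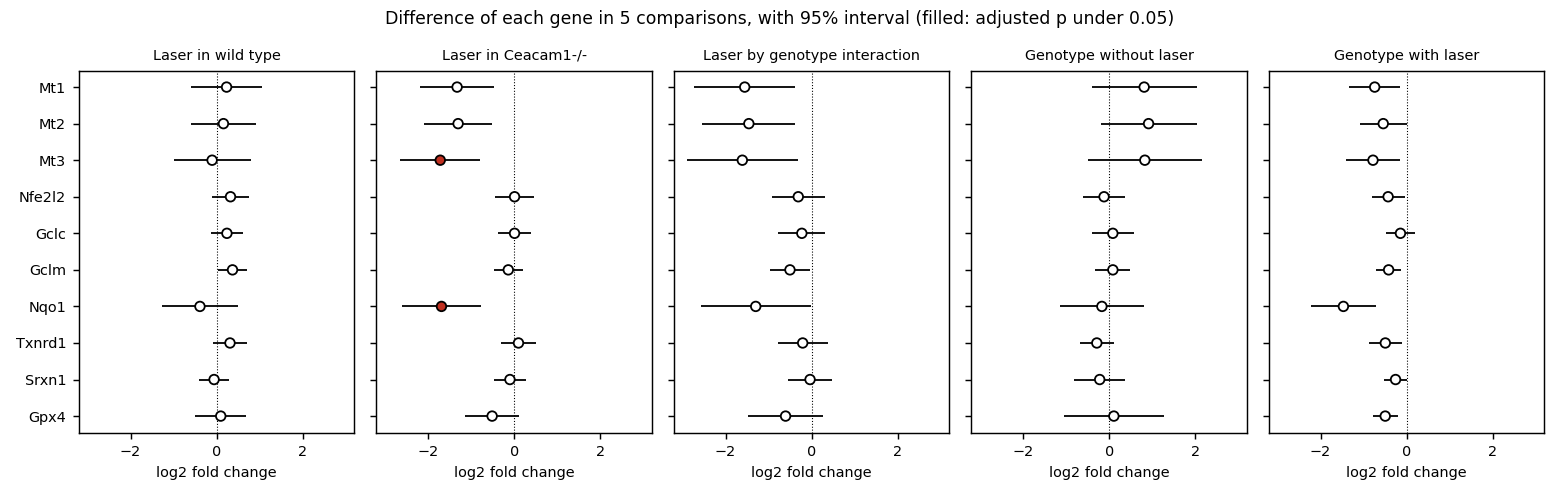
Log2 fold change of the 10 genes in the 5 comparisons with the 95% interval of limma. Filled points have an adjusted p under 0.05, which are Mt3 and Nqo1 for laser in Ceacam1-/- mice; in the comparison of genotypes with laser each of the 10 points lies below 0.

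No member passed the test between genotypes without laser. In the 8 libraries without laser, 0 of the 10 members and 0 of 20057 genes (0%) were called by limma, 0 members had an unadjusted p under 0.05, and 1.53% of all genes did. The study itself reported a small set of differentially expressed genes between these genotypes in choroid, from DESeq2 with sex in the model. Each member had a limma adjusted p of 0.999. So did the deleted gene Ceacam1 (log2 fold change -1.95, standard error 0.60). A miss in these 8 libraries therefore does not show that a gene is unchanged. The groups overlapped for each member, while 1.36% of all genes did not overlap. The log2 fold changes of Mt1, Mt2 and Mt3 were 0.81, 0.92 and 0.83 (standard errors 0.54, 0.49 and 0.59), with library 25 the highest in each. Txnrd1 came nearest to separation, with 3 of 4 Ceacam1-/- libraries below each wild type library (log2 fold change -0.29, two-sided exact permutation p = 0.0857, where the smallest p of 4 against 4 is 0.0286).

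With laser, each of the 10 members had a lower mean log2 value in Ceacam1-/- than in wild type libraries, and none passed the adjusted test. Nqo1 had the largest difference (2.77-fold lower, log2 fold change -1.47, standard error 0.36, adjusted p = 0.108), and 6 of the 7 Ceacam1-/- laser libraries were below each wild type laser library. The two-sided exact permutation test of Nqo1 gave p = 0.000262. Gpx4 had the next lowest p, with a smaller difference than the metallothioneins (1.41-fold lower, log2 fold change -0.50, standard error 0.14, adjusted p = 0.116, exact permutation p = 0.00140), and 5 of 7 libraries were below each wild type laser library. Gclm had a log2 fold change of -0.42 (standard error 0.14, adjusted p = 0.145), Txnrd1 -0.49 (0.18, 0.157), Mt3 -0.78 (0.30, 0.169) and Mt1 -0.74 (0.28, 0.167). Gclc differed least, by -0.14 (standard error 0.16, adjusted p = 0.577).

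In this comparison 4 of 19757 genes (0.0202%) had an adjusted p under 0.05. An unadjusted p under 0.05 with a lower value in Ceacam1-/- was found for 9 of the 10 members and for 9.85% of all genes. The groups overlapped for each member, and 0.147% of all genes did not overlap. Markers of several cell types differed in the same comparison. Log2 fold changes were negative for each of 12 RPE markers (median -1.20), 13 muscle markers (median -1.34) and 15 myeloid markers (median -0.54). The same held for each of 10 endothelial markers (median -0.52) and 7 fibroblast markers (median -0.42). They were positive for each of 13 photoreceptor markers (median 2.03) and 5 red blood cell markers (median 0.70), with 0 of these markers called. When libraries 14, 15 and 18, rich in photoreceptor markers, were left out, 2 of the 10 members and 8.4% of 19316 genes (either direction) had an unadjusted p under 0.05. These members were Nqo1 (log2 fold change -0.80, standard error 0.24, adjusted p = 0.330) and Gpx4 (-0.35, 0.15, 0.519). The metallothioneins then had log2 fold changes between -0.36 and -0.24. The part of tissue composition in the values was not tested.

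The 3 metallothioneins varied together from library to library. Over the 24 libraries Mt1 and Mt2 had a Pearson's r of 0.967 (Spearman's rho 0.977), Mt1 and Mt3 0.958 (rho 0.916) and Mt2 and Mt3 0.926 (rho 0.897) on log2 values, each with a permutation p of 1e-05 for both measures, the smallest that 100000 resamples give. These are 3 of 45 pairs of members that were computed, without adjustment. Without the 2 libraries farthest from the median of the first gene, r was 0.962, 0.923 and 0.869. Within the wild type laser group r was 0.989, 0.980 and 0.968 and within the Ceacam1-/- laser group 0.935, 0.948 and 0.820, so the relation held in both. Nfe2l2 had an r of 0.773 with Gclm (rho 0.704, permutation p = 2e-05) and 0.724 with Txnrd1 (rho 0.746, permutation p = 5e-05). Without the 2 libraries farthest from the median of Nfe2l2, r was 0.594 and 0.654, and in the wild type laser group 0.228 and 0.796. In the Ceacam1-/- laser group the values were 0.915 and 0.867. Over the 24 libraries the other targets had lower r with Nfe2l2. It was 0.201 for Gclc (rho 0.331, permutation p = 0.345 and 0.112) and 0.0099 for Srxn1 (rho 0.021, permutation p = 0.963 and 0.924). Within the wild type laser group r was 0.751 for Gclc and 0.254 for Srxn1. Within the Ceacam1-/- laser group it was 0.035 and -0.122. For Nqo1 r was 0.604 (rho 0.263, permutation p = 0.00297 and 0.212) and 0.055 without the 2 libraries farthest from the median. The value over all libraries therefore rests largely on those 2. Within the wild type laser group r of Nqo1 with Nfe2l2 was 0.513, and within the Ceacam1-/- laser group 0.962. In the latter group Nfe2l2, Gclm, Txnrd1 and Nqo1 were each lowest in libraries 14, 15 and 18, which are rich in photoreceptor markers. The part of these libraries in the r of that group was not tested.

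Among 19950 genes, those with the profile most like Mt1 over the 24 libraries were Mt2, Mt3 and Sat2 (Pearson's r 0.946). The profile of Mt2 was most like those of Mt1, Ppdpf (0.933) and Mt3. Gclm had its nearest profiles in Sil1 (0.915), Npc2 (0.896) and the amino acid transporter subunit gene Slc3a2 (0.884). Srxn1 had no close partner, its nearest being Ptcd2 (0.785), Klhdc2 (0.758) and Strap (0.755). These values share the libraries, their normalization and their tissue composition and are given as a description.

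The summed RPE markers moved with part of the members. The sum was led by Ttr and includes the pigment genes Pmel, Tyr, Tyrp1, Dct and Mlana, and which cells it came from was not tested. In the 21 libraries outside the group of 3 with low RPE sums, log2 values correlated with the log2 of the summed RPE markers for Mt1 (Pearson's r 0.767, rho 0.605, permutation p = 4e-05 and 0.00479), Gpx4 (0.733, rho 0.657, p = 0.00012 and 0.00145) and Nqo1 (0.721, rho 0.657, p = 0.00026 and 0.00161). Mt3 (0.696, rho 0.530, p = 0.00041 and 0.0137) and Mt2 (0.667, rho 0.512, p = 0.00096 and 0.0181) had lower values. For the other 5 members r lay between -0.13 and 0.39, and these 10 relations were computed without adjustment by permutation tests. Leaving out the 2 libraries with the most extreme RPE sums gave r of 0.584 for Mt1, 0.581 for Gpx4, 0.716 for Nqo1, 0.489 for Mt3 and 0.423 for Mt2. Within the wild type laser group r was 0.308, 0.408, 0.699, 0.361 and 0.220 in the same order.

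**Figure D4:**
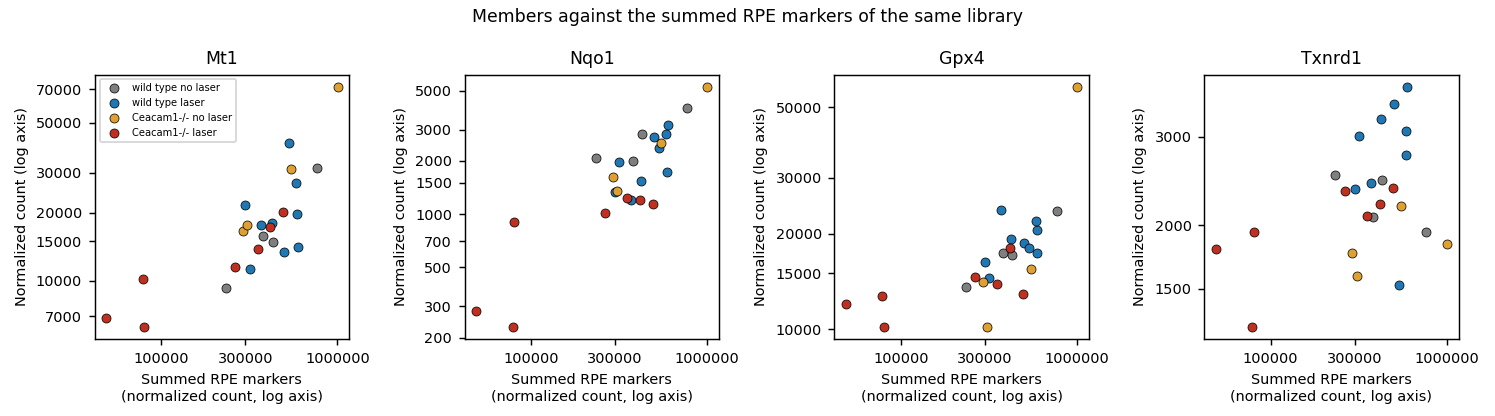
Normalized count of Mt1, Nqo1, Gpx4 and Txnrd1 against the summed RPE markers of the same library (both log axes), coloured by group. Library 25 is the point at the upper right for Mt1, Nqo1 and Gpx4, libraries 14, 15 and 18 lie at the left, and Txnrd1 shows no slope over the 21 other libraries (Pearson's r 0.043).

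Other targets of NRF2 were examined as a list of 28 genes, of which 27 passed the filter. After laser 3 were higher and 0 lower in wild type mice, where 4.23% of all genes were called higher, and 1 was higher and 0 lower in Ceacam1-/- mice, where 2.07% were. The list's median on the log2 scale was 0.39 for wild type, against -0.10 over all genes, and -0.03 for Ceacam1-/- mice, against 0.02. Hmox1 (ENSMUSG00000005413, chromosome 8, 75820241 to 75827217, plus strand), the enzyme that opens the haem ring, was the clearest. It had 314, 215, 422 and 303 normalized counts in wild type libraries without laser and 1211 to 4232 (median 1831) with laser. In Ceacam1-/- libraries it had 188, 316, 292 and 354 without laser and 1340, 1511, 1382, 1489, 1425, 442 and 861 with laser. In both genotypes each laser library exceeded each library without laser.

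Hmox1 rose 6.44-fold with laser in wild type (log2 fold change 2.69, standard error 0.32, adjusted p = 1.32e-05) and by a log2 fold change of 2.00 in Ceacam1-/- mice (standard error 0.33, adjusted p = 0.00145). The difference between the genotypes in this effect was -0.69 (standard error 0.46, adjusted p = 0.641). Glutathione reductase, Gsr, rose in wild type mice (log2 fold change 0.54, standard error 0.14, adjusted p = 0.0223). So did Pgd, an enzyme of the pentose phosphate pathway that supplies NADPH (log2 fold change 0.52, standard error 0.14, adjusted p = 0.0342). For laser in Ceacam1-/- mice, Gsr had a log2 fold change of 0.20 (adjusted p = 0.461) and Pgd of 0.47 (adjusted p = 0.0774). The call of Gsr was lost without library 21, 26 or 27 (adjusted p 0.101, 0.0503 and 0.0887) and that of Pgd without library 1, 12, 19, 21, 26 or 27 (adjusted p between 0.0526 and 0.163). Without the 5 libraries rich in photoreceptor markers Pgd missed the threshold in wild type (adjusted p = 0.0672) and passed in Ceacam1-/- mice (0.0423), and without the filter on low values it missed it in wild type (0.0732). Myeloid markers, which include macrophage genes and were led by Lyz2, had higher median sums with laser in both genotypes, as Hmox1 had. Whether they followed Hmox1 from library to library was not tested. Of the 15 markers, 14 were called higher with laser in wild type mice (4.23% of all genes) and 9 in Ceacam1-/- mice (2.07% of all genes). Their log2 fold changes were positive for 15 and 14 of the 15. Their sum was 13287 to 27248 in the 8 libraries without laser, 64184 to 155829 in wild type and 20626 to 114130 in Ceacam1-/- laser libraries. Their part in the Hmox1 values was not tested.

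**Figure D5:**
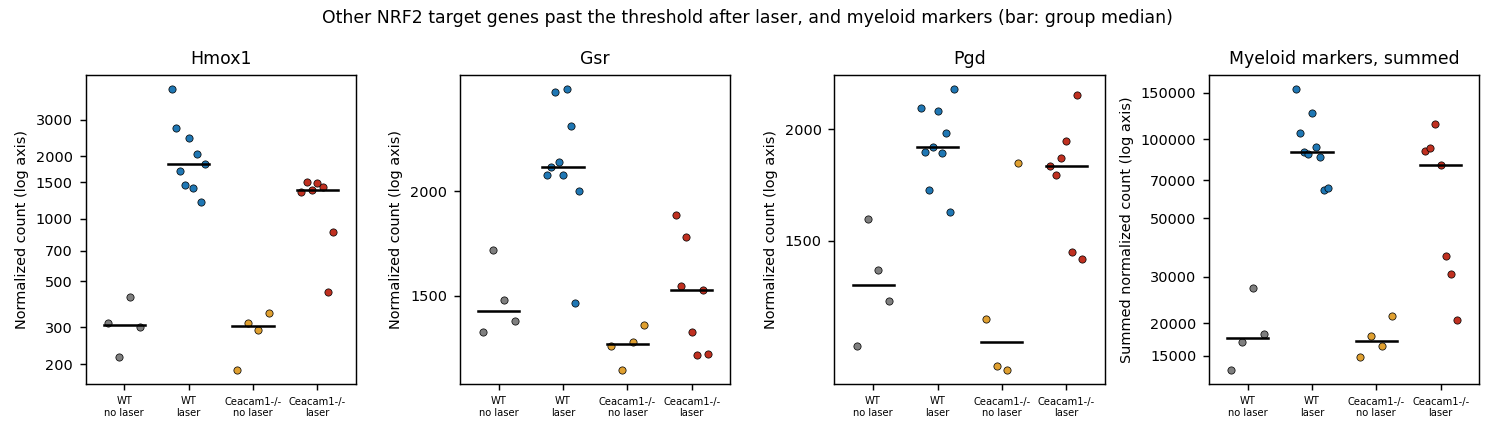
Normalized counts (log axis) of Hmox1, Gsr and Pgd and the summed myeloid markers in each library, with bars at the group medians. The lowest Hmox1 value with laser (442, library 15) lies above the highest without laser (422, library 26).

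Genes that regulate NRF2 (13 genes, such as its inhibitor Keap1) had 0 calls in either laser comparison. The lowest p belonged to Bach1, a repressor of Hmox1, in wild type mice (log2 fold change 0.68, standard error 0.21, adjusted p = 0.0642) and to the related factor gene Nfe2l1 in Ceacam1-/- mice (-0.66, 0.22, adjusted p = 0.0928). Bach1 passed without library 23 (adjusted p = 0.0241), with array weights (0.00841) and with only the libraries compared (0.0245). Nfe2l1 passed without library 23 (adjusted p = 0.00805) and with array weights (0.00816). Of 31 genes of zinc and copper handling, which include the metal transporters that share regulators with the metallothioneins, 28 were tested and 0 were called in either comparison. The zinc transporter genes Slc39a11 (log2 fold change 0.93 in wild type, adjusted p = 0.0945) and Slc30a6 (0.48 in Ceacam1-/-, adjusted p = 0.0724) had the lowest p. Slc39a11 passed in wild type without library 17 (adjusted p = 0.0451) and with array weights (log2 fold change 1.37, adjusted p = 6.15e-05). Slc30a6 passed without library 23 (adjusted p = 0.0494) or 28 (0.0422) and with array weights (0.00626). Without the 5 libraries rich in photoreceptor markers Bach1 passed in wild type (adjusted p = 0.0351), and Nfe2l1 (0.0376), Slc30a6 (0.0293) and Slc39a11 (log2 fold change 1.55) passed in Ceacam1-/- mice.

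Of 22 other antioxidant enzymes, 1 was called after laser in wild type mice, a share near the 4.23% of all genes called higher. Prdx4, a peroxiredoxin of the endoplasmic reticulum, rose 2.86-fold (800.7 ± 275 without laser, n = 4, and 2248 ± 554 with laser, n = 9, mean ± SD, limma adjusted p = 0.0128). It had a log2 fold change of 1.07 in Ceacam1-/- mice (adjusted p = 0.105), and passed there without library 14 (adjusted p = 0.0355) and without the 5 libraries rich in photoreceptor markers (1.74, adjusted p = 0.000146). With array weights Prdx4 also passed in Ceacam1-/- mice (1.61, adjusted p = 0.000353). In wild type mice the call was lost without library 21 (adjusted p = 0.0825) or 27 (0.0603). Of 15 glutathione and ferroptosis genes, 1 was called higher in wild type mice (4.23% of all genes) and 1 lower in Ceacam1-/- mice (1.65% of all genes). Ggt5, which cleaves glutathione, rose 2.58-fold in wild type mice (log2 fold change 1.37, standard error 0.38, adjusted p = 0.0340). In Ceacam1-/- mice its value was 0.46 (adjusted p = 0.541), and 0.72 (adjusted p = 0.0487) without the 5 libraries rich in photoreceptor markers. The related gene Ggt1 fell 5.52-fold in Ceacam1-/- mice (log2 fold change -2.47, standard error 0.67, adjusted p = 0.0412) and had -0.29 in wild type (adjusted p = 0.819). The laser effects on Ggt5 and Ggt1 were not shown to differ between genotypes (interaction adjusted p = 0.640 for each). Both calls were fragile, as Ggt5 was lost without library 1, 3, 21, 22 or 27 (adjusted p between 0.0574 and 0.145) and Ggt1 without library 3, 4, 5, 11, 14, 15, 18, 24 or 25 (adjusted p between 0.0511 and 0.254). Ggt5 was also lost without the filter (0.0569), with quantile normalization (0.0525) and with Y-linked expression as covariate (0.0637). Ggt1 was also lost without the libraries rich in photoreceptor markers (0.0995), without the filter (0.0678), with array weights (0.0589) and with only the libraries compared (0.181).

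Because glucocorticoids induce Mt1 and Mt2, 10 glucocorticoid-induced genes were followed. Of these, 1 was called higher in wild type (4.23% of all genes) and 1 lower in Ceacam1-/- mice (1.65% of all genes). Cebpd rose 2.03-fold with laser in wild type mice (log2 fold change 1.02, standard error 0.29, adjusted p = 0.0414) and Pdk4, a kinase that restrains pyruvate oxidation, fell 6.50-fold in Ceacam1-/- mice (-2.70, 0.65, adjusted p = 0.0229). Cebpd had a log2 fold change of 0.36 in Ceacam1-/- mice (adjusted p = 0.528) and Pdk4 of -0.80 in wild type (adjusted p = 0.483), and the interaction had an adjusted p of 0.640 for each. Pdk4 is also expressed in muscle, and the muscle markers summed to 25887 to 371670 in Ceacam1-/- laser libraries and 92707 to 1693513 without laser, a part that was not tested. The call of Pdk4 was lost without library 24 (adjusted p = 0.112) or 25 (0.145) and with only the libraries compared (0.140). Its log2 fold change in Ceacam1-/- mice ranged from -3.42 to -2.37 when single libraries were left out. That of Cebpd was lost without each of libraries 1, 2, 3, 12, 16, 21, 22, 26 and 27 (adjusted p between 0.0551 and 0.182), and also without the filter (0.0715), without a variance trend (0.0518) and with Y-linked expression as covariate (0.0567). The middle value of the 10 log2 fold changes was -0.20 for wild type, against -0.10 over all genes, and -0.19 for Ceacam1-/- mice, against 0.02.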

How the data were processed

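RNA of RPE, choroid and sclera was sequenced as SMART-Seq mRNA libraries. Per the study's methods and the submitters' processing notes, the authors quantified reads with Salmon 1.10.3 against GRCm39, summed transcripts to genes and deposited a signal in the form of normalized counts from DESeq2 1.44.0, after removal of 1 outlier sample. Read depth is unknown, because only 31.6% to 73.5% of low values per library were within 0.05 of a whole multiple of 1 read, so no count model was used. Values were taken as log2(value + 1), and genes with a mean of at least 10 were tested with limma 3.58.1 (R 4.3.3, variance trend) and Benjamini-Hochberg adjustment over all genes tested. The 24 libraries formed 1 model for laser effects and their interaction with genotype, 8 libraries entered the genotype comparison without laser and 16 that with laser. Single members were tested by two-sided exact permutation of log2 values, in 40 tests without adjustment. The fit was checked on simulated data. The study adjusted for sex, which the labels do not give. Outside the members, the text names up to 3 genes per list and direction that passed the test in a laser comparison, or the gene of lowest p where none did, and for Mt1, Mt2, Gclm and Srxn1 the 3 genes of most similar profile. The members and lists were chosen with earlier results of these data known. Alternatives changed the pseudocount, filter, scaling, model or libraries. That without the libraries rich in photoreceptor markers was chosen after seeing the data. The most abundant photoreceptor marker is not reported here.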

Additional observations from a re-analysis of the deposited data

Results flagged for a closer look

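Srxn1 in wild type laser library 17 had 874 normalized counts, the lowest of the 9 libraries of its group, and stood apart from them by 0.597 of the group's range on the log2 scale. This was the only such value in 40 groups of libraries tested on that scale for the members, and chance alone flags about 1 in 20 groups.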

How the results depend on the processing

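No paired analysis was possible because the groups share no replicate numbers. Genes called after laser in wild type mice numbered 1053, and 1645 without libraries rich in photoreceptor markers, 6505 with array weights, 2274 with only the libraries compared and 479 to 1257 when single libraries were left out. In Ceacam1-/- mice they numbered 742, and under these settings 2923, 3551, 38 and 148 to 2488, with 437 without the filter. Members called in wild type mice numbered 4 with array weights against 0. In Ceacam1-/- mice 2 members were called, against 1 without libraries rich in photoreceptor markers, 0 without the filter, 3 with a mean of at least 50, 4 with array weights, 0 with only the libraries compared and 0 to 4 when single libraries were left out. Between genotypes without laser 1 gene was called without a variance trend and 1 with array weights, and 0 to 1 when single libraries were left out, against 0. With laser 4 genes were called, against 2 without libraries rich in photoreceptor markers, 2 with a mean of at least 50, 297 with array weights, 9 in the model of all 24 libraries and 4 to 61 when single libraries were left out. The interaction had 0 calls under each alternative, with 1241 genes at an unadjusted p under 0.05. Fewer genes or libraries enter some of these settings, and otherwise the cause was not tested.

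Signs of small effects turned, none past the threshold. Without libraries rich in photoreceptor markers these were Srxn1 in wild type after laser (0.034), Gclm (0.11) and Srxn1 (0.0057) in Ceacam1-/- after laser, Nfe2l2 (0.035) and Txnrd1 (0.0061) in the interaction and Gclc without laser (-0.0055). With array weights they were Srxn1 in wild type (0.064), Gclm (0.16) and Gclc (-0.098) in Ceacam1-/- and Gpx4 without laser (-0.0015). With quantile normalization they were Gpx4 in wild type (-0.0034) and without laser (-0.011) and Gclc in Ceacam1-/- (-0.0024). With Y-linked expression as covariate they were Gpx4 (-0.046) and Mt2 (-0.034) in wild type, Gclc in Ceacam1-/- (-0.0060) and Srxn1 in the interaction (0.0060). When single libraries were left out, wild type laser effects ranged from -0.038 to 0.55 for Mt1, -0.021 to 0.40 for Mt2, -0.38 to 0.22 for Mt3, -0.21 to 0.063 for Srxn1 and -0.030 to 0.23 for Gpx4. Those in Ceacam1-/- mice ranged from -0.14 to 0.13 for Nfe2l2, -0.13 to 0.15 for Gclc and -0.81 to 0.026 for Gpx4. The interaction of Srxn1 ranged from -0.21 to 0.11. Genotype effects without laser ranged from -0.23 to 0.027 for Nfe2l2, -0.56 to 0.094 for Nqo1, -0.052 to 0.22 for Gclc and -0.43 to 0.41 for Gpx4.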

Other observations

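Within the 9 wild type laser libraries, Txnrd1 had negative correlations with the metallothioneins, a relation chosen after its values were seen. Pearson's r of Txnrd1 with Mt2 was -0.864 (Spearman's rho -0.75, exact permutation p = 0.00524 and 0.0255), with Mt1 -0.810 (rho -0.65, p = 0.0104 and 0.0666) and with Mt3 -0.784 (rho -0.65, p = 0.0153 and 0.0666) by the same exact test, among 6 relations without adjustment. Without the 2 libraries farthest from the median r was -0.770 with Mt2, -0.654 with Mt1 and -0.670 with Mt3. Without library 17, which had the highest metallothionein and the lowest Txnrd1 values of the group, r was -0.633, -0.533 and -0.487, so the relation rests in part on that library. In the 7 Ceacam1-/- laser libraries r was 0.662 with Mt2 (rho 0.75, exact permutation p = 0.0935 and 0.0663), 0.468 with Mt1 (rho 0.75, p = 0.299 and 0.0663) and 0.312 with Mt3 (rho 0.821, p = 0.491 and 0.0341) by the same exact permutation test. The difference between the groups was not tested.

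The genes with the profile most like Nqo1 over the 24 libraries were Phgdh, the first enzyme of serine synthesis (Pearson's r 0.961), Etnk2 (0.933) and Slc6a13 (0.928), chosen after their values were seen and given as a description.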
